A study of Homo sapiens with 20 samples.

Results

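This account concerns the RNA sites at which U2AF2 was crosslinked in both conditions of an iCLIP study, that is, the U2AF2 sites kept when hnRNPA1 was overexpressed. Deposited peaks of at least 6 reads from the 6 U2AF2 libraries were merged by chromosome and strand wherever they overlapped by 1 nt or more, which gave 226074 sites. A site counted as kept when at least 2 of 3 overexpression libraries and at least 2 of 3 control libraries had a peak in it. This held for 8723 sites, or 3.86% of all. The choice rests on U2AF2 reads in both conditions, so U2AF2 levels and changes at these sites are given as a description, and the calls of the fit over all sites are printed once, with nothing read from them. The reads of hnRNPA1 and SRSF1 at the same sites were not used for the choice. The positions of the U2AF2 peaks entered it through the merging, so coverage and distances within a site are descriptions too.

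The cells were TREX FLP-In 293T cells per the cell line label (HEK293 in the RNA-seq titles), a human embryonic kidney line of labelled epithelial type in which a transgene at a defined genomic place can be switched on with tetracycline. Overexpression cells carried an inducible T7-tagged hnRNPA1 and had been selected with blasticidin and hygromycin, and control cells had been selected with blasticidin and zeocin, in both cases for 3 days. Both were grown with tetracycline for 24 h, and iCLIP was done on nuclear extracts. U2AF2 and SRSF1 had 3 libraries per condition and hnRNPA1 had 2, and RNA-seq had 2 per condition. The labels do not say whether replicates were separate cultures, or whether each line was a single clone, so the spread between libraries may be technical.

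iCLIP (individual-nucleotide resolution crosslinking and immunoprecipitation) uses ultraviolet light to bind a protein to the RNA it touches and sequences the RNA fragments pulled down with it. U2AF2, the large subunit of the U2 auxiliary factor, binds the polypyrimidine tract just upstream of 3' splice sites and helps to recruit the U2 snRNP. hnRNPA1 is an abundant nuclear RNA-binding protein best known as a repressor of splice site use, and SRSF1 is an SR protein that binds exonic enhancers and mostly promotes exon inclusion. Intronic Alu elements, which the study's title names, carry pyrimidine-rich stretches when they lie antisense to a gene. No genome of the peaks' build (hg19) was used here, so no site is placed in an exon, intron or repeat, and no site sequence is printed.

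Depth set what a peak could be. Reads in peaks of at least 6 reads numbered 2259743 to 3136351 in the U2AF2 overexpression libraries and 692837 to 1145380 in the control libraries. For hnRNPA1 the order was the other way, with 540256 and 566544 in overexpression and 2480791 and 2940786 in control libraries, and SRSF1 held 170719 to 321129 and 121534 to 168204. Counts were scaled by median-of-ratios size factors from the sites with a peak in every library of a protein. A peak of 6 reads was then worth 1.94 to 2.60 normalised reads in U2AF2 overexpression libraries and 12.4 to 18.5 in control libraries. For hnRNPA1 it was worth 9.64 and 10.1 in overexpression and 3.46 and 3.86 in control libraries. A library without a peak counted as 0, and the part of these unequal minimums in each result below was not tested beyond the alternatives given. Of 4 epithelial marker genes, 2 had a site in at least 2 overexpression libraries and 1 in at least 2 control libraries. The numbers were 2 and 0 of 4 for kidney, 1 and 1 of 4 for haematopoietic cells, 0 and 0 of 4 for neurons and 0 and 0 of 3 for hepatocytes.

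The kept sites were spread over 4967 gene IDs, of which 4601 had a symbol. A single kept site was found in 3094 of these genes, and 192 genes held 5 or more. The sites were 135 nt wide at the median, with quartiles of 87 and 221 nt and a range of 18 to 4676 nt. Sites seen only in overexpression (a peak in at least 2 of 3 libraries and in none of the other condition, 66331 sites) had a median width of 68 nt, and those seen only in control (11998 sites) one of 96 nt. A peak in all 6 libraries was present at 4613 kept sites, or 52.9%. Few in number, the kept sites held much of the U2AF2 signal: 44.5%, 45.3% and 40.3% of the reads in peaks of the 3 overexpression libraries, against 42.1%, 39.8% and 37.1% in the 3 control libraries. These ranges overlap between conditions.

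Other proteins were often found at the kept sites. An hnRNPA1 control peak (in either control library, overlapping by at least 1 nt) lay in 7546 kept sites, or 86.5% (exact 95% binomial interval 85.8 to 87.2%, for counting error only). The share was 17.9% for sites seen only in overexpression, 37.6% for sites seen only in control and 19.2% over all merged sites. An SRSF1 control peak lay in 53.5% of kept sites, against 2.26% of overexpression-only, 12.4% of control-only and 5.07% of all merged sites. Kept sites were also the widest of these classes, and the part of width and of read depth in the shares was not tested. hnRNPA1 peaks of the shallower overexpression libraries lay in 37.0% of kept sites.

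The comparison the choice of sites leads to is between kept sites with an hnRNPA1 control peak and those without one. With a peak (7546 sites), the median U2AF2 level was 36.5, 37.3 and 34.3 normalised reads in the overexpression libraries, against 39.0, 37.0 and 41.4 in the control libraries. Without one (1177 sites), it was 4.47, 6.51 and 4.20 in the overexpression libraries, against 36.0, 43.2 and 47.6 in the control libraries. In control libraries, where the rule asks for peaks worth at least 12.4 to 18.5 normalised reads, the class medians were close. In overexpression, where a peak could be worth 1.94 to 2.60, the sites without an hnRNPA1 peak lay far lower in each of the 3 libraries. On the log2(normalised reads + 1) scale, the median of sites with a peak minus that of sites without was 2.63 ± 0.24 in overexpression and -0.10 ± 0.18 in control libraries (SD, n = 3 each). Over kept sites with a U2AF2 peak in all 6 libraries it was 2.54 ± 0.23 and -0.51 ± 0.15. There the sites without an hnRNPA1 peak were the higher ones in control libraries.

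**Figure D1:**
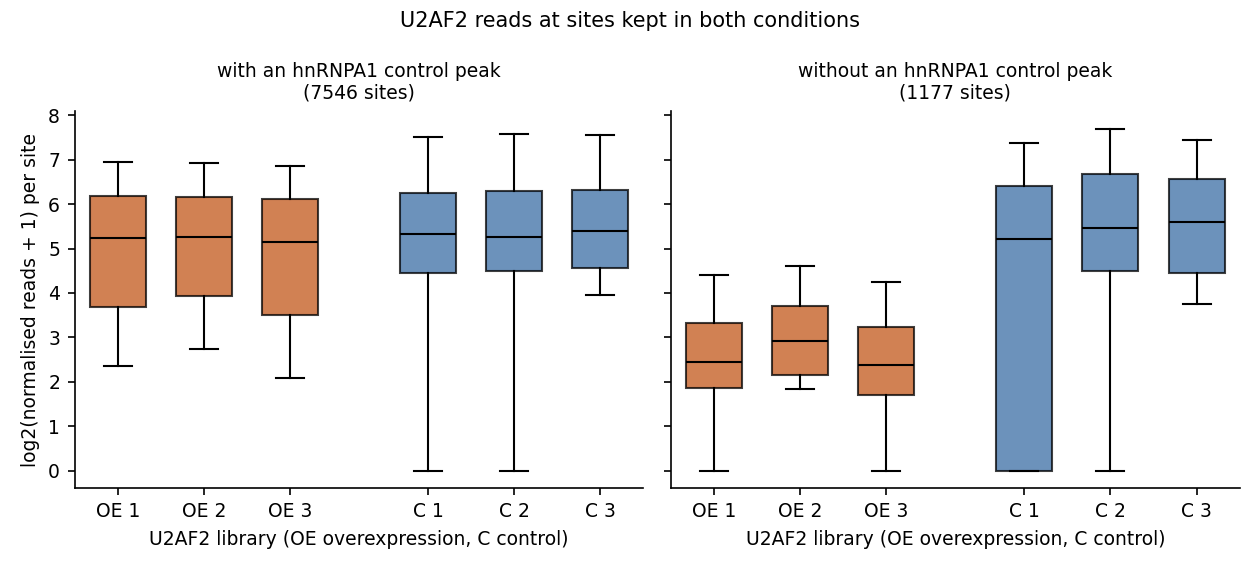
U2AF2 reads per kept site, as log2(normalised reads + 1), in each of the 3 overexpression (OE) and 3 control (C) libraries, for 7546 sites with and 1177 sites without an hnRNPA1 control peak. Boxes are quartiles with the median, whiskers run to the q10 and q90 of the sites; the overexpression boxes are low only in the right panel.

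Site by site, the log2 change (overexpression minus control, with a pseudocount of 1) had a median of 0.40 for sites with an hnRNPA1 control peak and -2.04 for sites without, a difference of 2.44. A change below -1 was seen at 27.6% of the sites with and 72.6% of those without, and one above 1 at 33.0% and 4.84%. Reads in sites without an hnRNPA1 peak made up 1.12 ± 0.23% of all U2AF2 reads in overexpression and 4.45 ± 0.32% in control libraries (SD, n = 3 each). That share uses no size factor, and its ranges, 0.908 to 1.37% and 4.13 to 4.76%, do not overlap. It still rests on the reads used to choose the sites, and on all peaks of libraries of unequal depth, so it is a description only. The change scale itself has no fixed zero. The size factors come from the 4613 kept sites with a peak in all 6 libraries, which holds the members' median near 0. With total reads in peaks as the scale the median over kept sites was 1.27 in place of 0.17, and the class medians were 1.52 with and -1.21 without an hnRNPA1 peak.

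**Figure D2:**
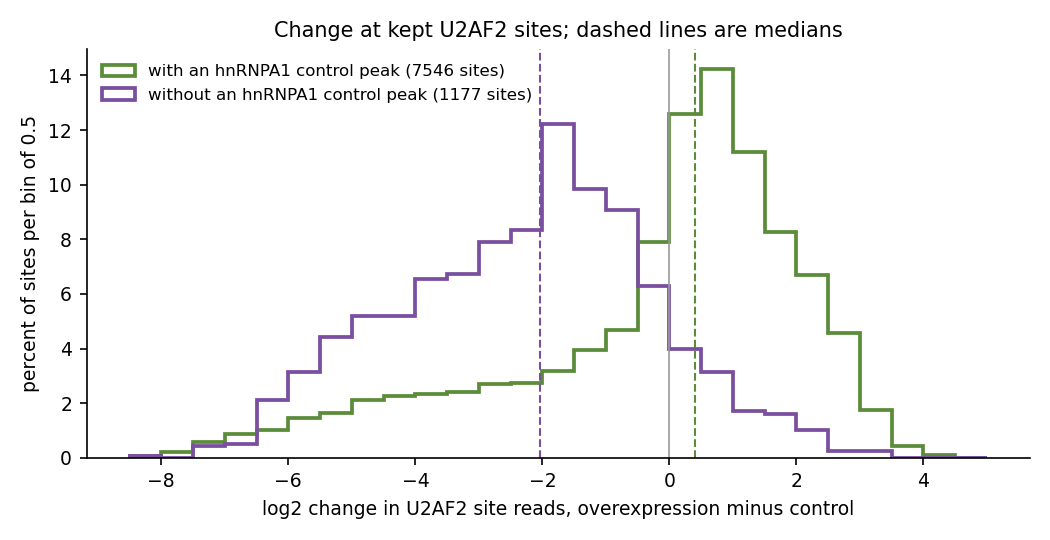
Distribution of the log2 change in U2AF2 site reads, overexpression minus control, as percent of the sites of each class per bin of 0.5, for kept sites with (7546) and without (1177) an hnRNPA1 control peak. Dashed lines are the medians, 0.40 with and -2.04 without; the class with a peak also has a long tail of lower values.

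The size of the class difference moved with the treatment of low values. It was 3.32 over the 4613 sites with a peak in all 6 libraries (0.21 with, 4289 sites, and -3.11 without, 324 sites). With values raised to the highest library minimum, 18.5 normalised reads, it was 1.07, and among the 4859 sites with at least that level in 2 libraries of each condition it was 1.54 (4737 and 122 sites). Over all 54871 merged sites present in 3 or more of the 6 libraries the order of the classes was the opposite, 2.09 with and 2.38 without, a set in which most sites had peaks in overexpression libraries alone. The number of libraries with a peak enters the change itself, since a library without one counted as 0. The smallest peak was also worth more in control than in overexpression libraries, so the following medians are in part set by the counting. Kept sites with 2 overexpression and 2 control libraries (568 sites) had a median of -1.88. Just outside the rule, sites with 2 and 1 (1369 sites) had -0.04 and sites with 1 and 2 (852 sites) had -2.83.

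Across all 54871 sites tested, limma called 79.9% changed at an adjusted p under 0.05, 67.6% higher and 12.4% lower with overexpression. Of the 8723 kept sites 1375 were called higher and 2233 lower, counts fixed in part by the rule, from which nothing is read. Without an hnRNPA1 control peak 5 were called higher and 507 lower, and with one 1370 and 1726. In the fit of the 4613 sites with a peak in every library, 68.4% were called, 32.3% higher and 36.1% lower, 1490 and 1665 sites. With values raised to the highest library minimum, 47.1% of 21740 sites were called, 20.9% higher and 26.2% lower, and of 8581 kept sites 2091 were higher and 2046 lower.

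Change did not follow hnRNPA1 signal in one direction. At kept sites with a peak in both hnRNPA1 control libraries the median change was 0.50 (6835 sites), with a peak in 1 of them -1.34 (711 sites) and with none -2.04. By mean hnRNPA1 control reads, the median was -1.0 under 10 reads (503 sites), -0.01 at 10 to 20 (765 sites), 0.66 at 20 to 50 (2993 sites), 0.59 at 50 to 100 (2096 sites) and 0.06 at 100 to 200 (818 sites). At 200 reads or more (371 sites) it was -4.59, and -4.16 over the 329 of these that do not lie on the inactive X transcript. The middle of the hnRNPA1 range thus held the highest U2AF2 changes, and both ends lay below 0 on this scale. With total reads as the scale the group of 200 reads or more stayed below 0, at -3.45. That scale raised the median over all kept sites from 0.17 to 1.27. The group under 10 reads was not computed on it, so the sign of its median is not fixed. SRSF1 made less difference between classes: with hnRNPA1 and SRSF1 control peaks the median was 0.38 (4433 sites), with hnRNPA1 alone 0.44 (3113 sites), with SRSF1 alone -2.76 (237 sites) and with neither -1.89 (940 sites).

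Width went with the change as well. Sites of 400 nt or more (513 sites in 344 genes) had a median change of -4.58, and narrower sites (8210) one of 0.27. Among wide sites the hnRNPA1 classes were in the opposite order, -4.70 with (423 sites) and -4.07 without (90 sites). Under 400 nt they were 0.49 (7123 sites) and -1.93 (1087 sites). Sites of 800 nt or more, 150 in number, had a median of -5.44. The width is that of the merged peaks and so is itself partly made by the control peaks that cover it.

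**Figure D3:**
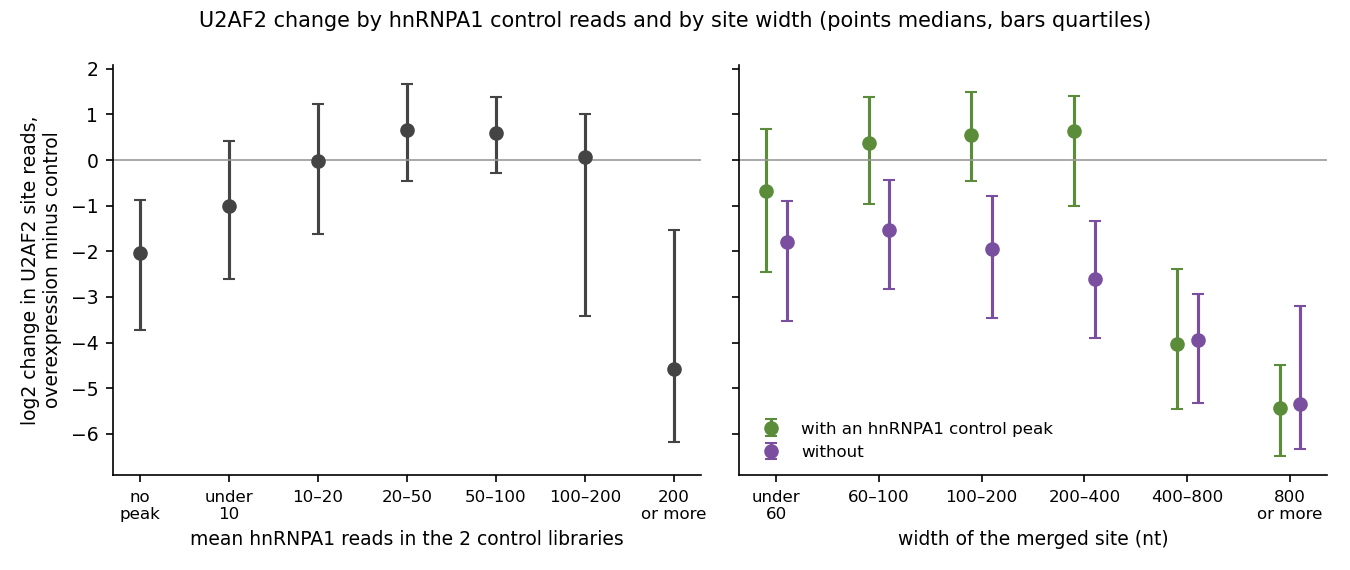
Median log2 change in U2AF2 site reads, overexpression minus control (points; bars are quartiles over sites), by the mean hnRNPA1 reads in the 2 control libraries (left) and by site width in nt with and without an hnRNPA1 control peak (right). Medians lie above 0 at 20 to 100 hnRNPA1 reads and fall to -4.59 at 200 or more, and both classes lie below -3 from 400 nt.

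In the wide sites the peaks of control libraries covered far more of the site. The median share of a site covered was 14.4%, 21.1% and 14.2% in the overexpression libraries that had a peak there, against 72.1%, 72.5% and 84.0% in control libraries. Under 400 nt it was 81.9%, 82.0% and 74.8% in overexpression, against 63.8%, 62.5% and 68.6% in control libraries. Sites without an hnRNPA1 control peak were also covered less in overexpression, at 45.1%, 48.2% and 44.0%, against 66.9%, 70.1% and 74.0% in control libraries. With an hnRNPA1 peak it was 82.8%, 83.0% and 75.9% in overexpression, against 63.8%, 62.1% and 69.1% in control libraries. Over all kept sites, overexpression libraries split a site into more peaks, 2.03, 1.92 and 2.95 on average, against 1.26, 1.28 and 1.37 in control libraries.

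The highest peak within a kept site did not keep its place across conditions as well as within one. The centres of the highest peaks of 2 libraries lay 4 to 7 nt apart at the median within overexpression (3 pairs of libraries), 7 nt apart within control (3 pairs) and 11 to 15 nt apart between conditions (9 pairs). They lay within 10 nt of each other at 63.3 to 80.6% of sites within overexpression, 60.6 to 62.3% within control and 37.9 to 48.4% between conditions. The between-condition range lies below both others. In sites of 400 nt or more the medians were 9 to 15 nt within overexpression, 79 to 101 nt within control and 167 to 199.5 nt between conditions. Against the highest hnRNPA1 control peak in the site, the U2AF2 peak lay within 10 nt at 40.5 to 49.5% of sites in overexpression and 57.3 to 60.2% in control libraries. Replicate 3 of overexpression, the lower of these at 40.5 and 41.3%, differed from replicates 1 and 2, which gave 48.6 to 49.5%.

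Sites on the inactive X transcript and chromosome Y left aside, kept sites were ranked by mean normalised U2AF2 reads over the 6 libraries. Size factors were 0.32 to 0.48 in control and 2.3 to 3.1 in overexpression libraries, so this ranking favours sites high in control libraries. The far fewer normalised reads of the highest sites in overexpression are thus in part set by the ranking. The leading site lay in ZNF711, which codes for a zinc finger transcription regulator on the X chromosome (hg19 chrX:84500905-84504196, plus strand, 3292 nt). It had 349, 456 and 264 normalised reads in the overexpression libraries, against 12113, 13696 and 13823 in the control libraries. Next was SRSF11, an SR-related splicing protein (chr1:70694219-70695856, plus strand), with 97.6, 173 and 75.3 in overexpression, against 4415, 5272 and 4246 in control libraries. Neither site's conditions overlap. A non-coding RNA, LINC02226, followed with 135 ± 40.2 in overexpression and 3993 ± 191 in control libraries (SD, n = 3 each, as for the means below). ARGLU1, a nuclear protein with roles in splicing, had 148 ± 42.9 and 3506 ± 537, and the transmembrane protein gene TMEM45A 160 ± 54.9 and 2568 ± 53.6.

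The other 5 of the 10 highest sites were of the same kind. In HNRNPA2B1, the closest relative of hnRNPA1 among the hnRNP genes, a site of 421 nt (chr7:26231317-26231737, minus strand) had 18.6, 63.3 and 8.08 normalised reads in overexpression, against 2542, 3048 and 2420 in control libraries. LARP4, an RNA-binding protein that acts on mRNA poly(A) tails, had 20.5 ± 5.64 in overexpression and 2461 ± 400 in control libraries at a site of 202 nt (chr12:50850370-50850571, plus strand). HNRNPH1, a G-tract-binding splicing regulator, had 26.5 ± 18.2 and 2428 ± 338, the translation factor gene EIF4G2 27.9 ± 19.6 and 2387 ± 418, and the heterochromatin protein gene HP1BP3 106 ± 34.8 and 2204 ± 232. All 10 sites had both an hnRNPA1 and an SRSF1 control peak, as had 4433 of the 8723 kept sites. The part of width and level in this was not tested. The log2 changes of the 10 ran from -6.88 (HNRNPA2B1) to -4.05 (TMEM45A). The 10 were taken by level, at most 2 a gene.

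**Figure D4:**
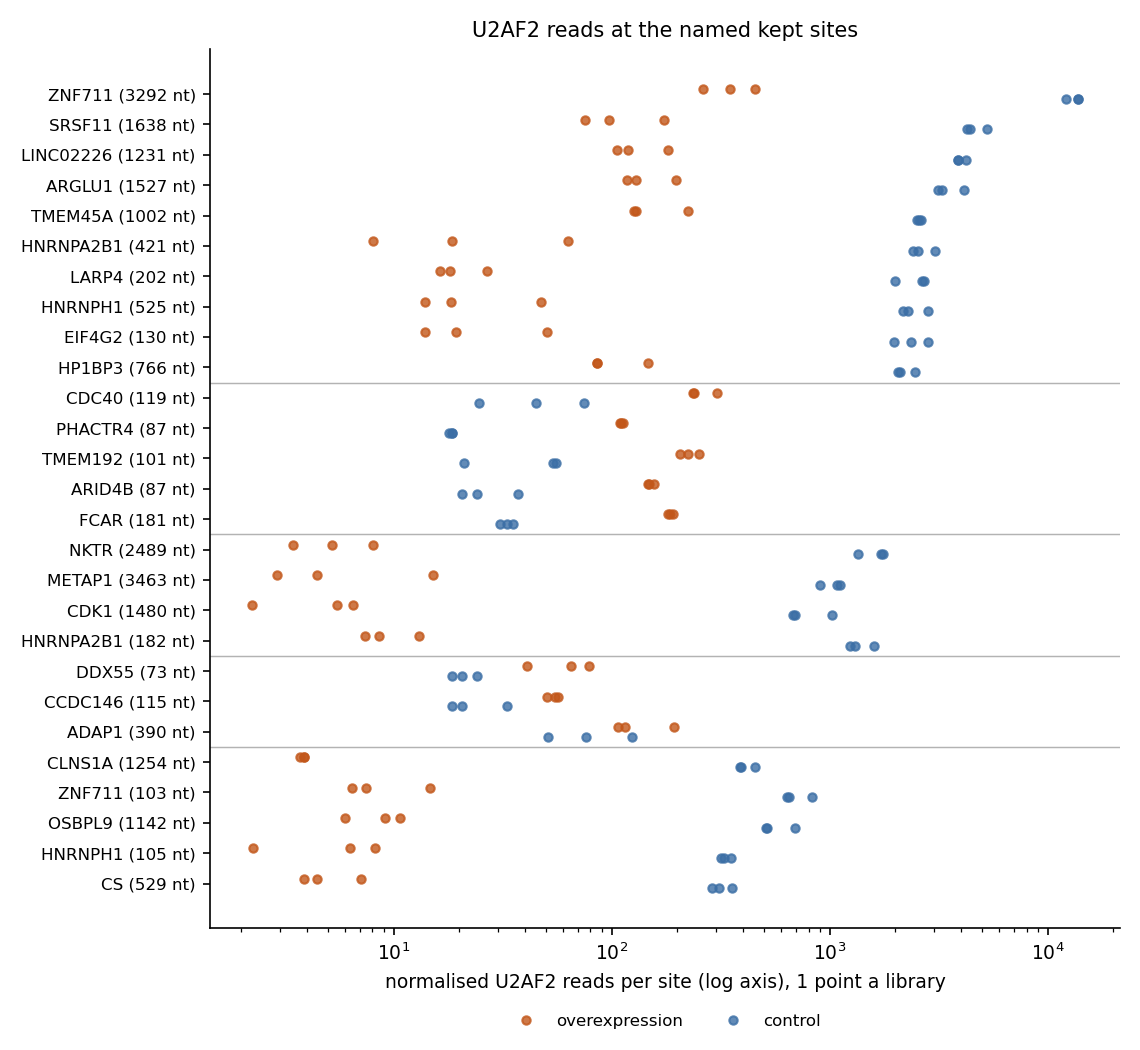
Normalised U2AF2 reads per library (log axis, 1 point a library, overexpression above control in each row) at the named kept sites whose gene has a symbol, with the site width. From the top, the blocks are the 10 highest sites, the largest positive and the largest negative changes with an hnRNPA1 control peak, and the same without one; the overexpression points lie below the control points by over 10-fold in the block of highest sites and in both blocks of negative changes.

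The largest rises in overexpression were smaller than the largest falls. With a peak in every library, control values cannot lie under 12.4 to 18.5 normalised reads, which limits rises more than falls. The sites named here were 87 to 181 nt wide. Over all kept sites, those with a change over 2 had a median width of 139 nt, beside 135 nt for all. Among kept sites with a peak in all 6 libraries and an hnRNPA1 control peak, the largest change was at CDC40, a second-step splicing factor (chr6:110552594-110552712, plus strand, 119 nt). It had 303, 237 and 240 normalised reads in overexpression, against 45.0, 24.7 and 74.5 in control libraries, a log2 change of 2.54. PHACTR4, a regulator of protein phosphatase 1 and actin, had 113, 110 and 110 in overexpression, against 18.0, 18.5 and 18.6 in control libraries. These control values of PHACTR4 are 6, 6 and 9 reads, at or close to the minimum of a peak. TMEM192, a lysosomal membrane protein, had 227 ± 23.7 and 43.4 ± 19.4, ARID4B, a chromatin protein, 151 ± 5.03 and 27.2 ± 8.63, and FCAR, the IgA Fc receptor of myeloid cells, 186 ± 5.69 and 33.0 ± 2.15. In each of these 5 sites the lowest overexpression library lay above the highest control library. The choice of the largest changes makes this likely, so it adds no support. hnRNPA1 had no peak in either overexpression library at 4 of the 5, and a single one of 6 reads at CDC40. Such a peak lay in 41.9% of all kept sites with an hnRNPA1 control peak, and in 24.6% of kept sites with a U2AF2 change over 2. The hnRNPA1 overexpression libraries were the shallower ones, so nothing is read from its absence at these sites.

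At the other end, with an hnRNPA1 control peak, stood NKTR, a cyclophilin-related protein with an arginine and serine-rich domain (chr3:42660662-42663150, plus strand, 2489 nt). It had 5.22, 3.47 and 8.08 normalised reads in overexpression, against 1354, 1727 and 1756 in control libraries, a log2 change of -7.99. METAP1, a methionine aminopeptidase, had 7.52 ± 6.68 in overexpression and 1034 ± 114 in control libraries. The cell cycle kinase gene CDK1 had 4.75 ± 2.23 and 799 ± 196. ENSG00000204164, for which no name was matched, had 4.12 ± 1.01 and 731 ± 61.2, and a second HNRNPA2B1 site, of 182 nt, 9.67 ± 2.95 and 1381 ± 186. Of these 5 sites 4 were wider than 400 nt.

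Sites without an hnRNPA1 control peak had few positive changes. The largest among those with a peak in all 6 libraries was at the RNA helicase gene DDX55 (chr12:124104912-124104984, plus strand), with 65.2, 78.5 and 40.7 normalised reads in overexpression, against 24.0, 18.5 and 20.7 in control libraries. CCDC146, a coiled-coil protein of centrioles and flagella, followed with 54.1 ± 3.42 and 24.1 ± 7.82. The unnamed ENSG00000231252 and ENSG00000205236 had log2 changes of 0.93 and 0.81. At ADAP1, an Arf GTPase-activating protein, the conditions overlapped, with 193, 107 and 116 in overexpression and 51.0, 123 and 76.5 in control libraries. The largest negative changes in the class were several times greater. CLNS1A, a chaperone of snRNP assembly (chr11:77329205-77330458, minus strand), had 3.73, 3.90 and 3.88 in overexpression, against 393, 453 and 387 in control libraries, and a second ZNF711 site, of 103 nt, had 9.55 ± 4.53 and 708 ± 109. OSBPL9, a lipid-transfer protein, had 8.58 ± 2.40 and 573 ± 102, a second HNRNPH1 site 5.61 ± 3.05 and 332 ± 17.4, and citrate synthase (CS) 5.16 ± 1.71 and 318 ± 36.0.

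Genes of RNA processing held many kept sites, and the median change of each of the 6 gene lists examined lay below the 0.17 of all kept sites. Over all kept sites 4067 of 8723 changes were below 0, and over all 54871 sites tested the median was 2.33. Of 109 kept sites in 21 of 31 hnRNP genes, 102 had a change below 0, and the median was -4.54. HNRNPH1 held 21 sites, all below 0, with changes from -8.14 to -2.11, and HNRNPA2B1 12, all below 0. HNRNPAB, HNRNPF and HNRNPUL1, with 1 site each, had changes of 0.38, 0.93 and 2.69, with no peak in 1 control library each. HNRNPA1 itself had 2 kept sites, of 349 and 318 nt. The first had 14, 0 and 20 reads in overexpression libraries, against 141, 128 and 201 in control libraries, and the second 0, 52 and 58, against 215, 230 and 320. Both were lower in overexpression although those libraries were the deeper ones. These are reads on HNRNPA1 transcripts, not a measure of the transgene, whose level was not checked here.

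The SR protein genes had 62 kept sites in 12 of 18 genes, 58 below 0, with a median of -3.89. SRSF11 alone held 13, from -6.61 to -1.30, and SON, a large nuclear speckle protein, 5, from -6.51 to -3.23. The 3' splice site factors, a list that includes U2AF2 itself, had 35 sites in 11 of 22 genes, 29 below 0, with a median of -2.60. Within that list SF1, the branch point binding protein, had a median of -5.20 over 5 sites and SF3B1, the U2 snRNP component at the branch point, -5.05 over 4. The 4 sites of U2AF1, which codes for the small subunit, had a median of 0.78 and ran from -0.72 to 2.96. In the highest of these changes a library without a peak counted as 0. The list of double-stranded RNA binding and editing genes also held SFPQ, NONO, PSPC1 and MATR3. It had 31 sites in 13 of 16 genes, 27 below 0, and a median of -2.81. Of these sites 12 lay in SFPQ, a paraspeckle protein, and its highest (chr1:35650344-35650515) had 5.92 ± 6.32 normalised reads in overexpression and 297 ± 77.5 in control libraries.

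The snoRNA host genes, whose introns carry small nucleolar RNAs, had 51 sites in 15 of 18 genes, 50 below 0, with a median of -4.72. GAS5 stood for 7 of them, and its highest site (chr1:173834485-173834576, minus strand) had 57.4, 69.8 and 38.5 normalised reads in overexpression, against 1606, 1462 and 1330 in control libraries. Of the nuclear long non-coding RNAs, 3 of 8 had kept sites, 38 in all, with 34 below 0 and a median of -4.44. MALAT1, an abundant RNA of nuclear speckles, held 26, of which 25 were below 0. Its highest (chr11:65272078-65272158, plus strand) had 107, 186 and 158 in overexpression, against 1930, 2819 and 1588 in control libraries. NEAT1, the RNA scaffold of paraspeckles, held 10, with 9 below 0. Scaled by total reads, the 6 list medians lay between -3.53 and -1.49, beside 1.27 for all kept sites. Members with an hnRNPA1 control peak made up 64.5 to 90.2% of the sites of a list. iCLIP reads also follow how much of an RNA is present, and fewer transcripts and less binding per transcript cannot be told apart from these peaks.

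Many kept sites gathered in a few genes. ERBB4, a receptor tyrosine kinase, held 56, with a median change of -3.46 and 50 of the 56 below 0. ROBO1, an axon guidance receptor, held 30 with a median of -1.92, and its ligand gene SLIT2 26 with a median of -2.98. The splicing helicase gene DDX17 held 18, all below 0. POLR2J2 held 33, with a median of -0.21, and POLR2J4 16, with a median of -0.69. These belong to a set of near-identical gene copies, among which reads can be split, so their counts are uncertain.

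hnRNPA1's own reads were not used to choose the kept sites. They share the abundance of the same RNA with the U2AF2 reads that were used, so they are not fully independent of the choice. Kept sites held 11.1% and 13.1% of hnRNPA1 reads in the overexpression libraries, against 20.1% and 20.3% in the control libraries. This share needs no size factor, and the conditions do not overlap, though library depth differed between them. Among hnRNPA1 sites with a peak in all 4 libraries, those at kept U2AF2 sites (1515) had median log2 levels of 4.51 and 4.74 in overexpression and 5.74 and 5.71 in control libraries. The others (7759) had 4.71 and 4.65 in overexpression and 4.66 and 4.63 in control libraries. The level at kept sites minus that at other sites was -0.05 ± 0.20 in overexpression and 1.08 ± 0.00 in control libraries (SD, n = 2 each). Among these sites, the median at kept U2AF2 sites thus lay above that elsewhere in both control libraries. In overexpression it lay below in replicate 1 and slightly above in replicate 2. Over all hnRNPA1 peaks, kept sites held 6.08% and 7.94% of peaks in overexpression and 9.63% and 9.78% in control libraries. These shares lie below the shares of reads in both conditions. Levels are reads per site, not corrected for width.

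By the limma fit of the 9274 hnRNPA1 sites with a peak in all 4 libraries, 5.32% were called higher and 8.37% lower, and of the 1515 at kept U2AF2 sites 28 rose and 508 fell, with a median change of -0.74. With total reads as the scale the median of all these sites was 0.83 and that at kept sites 0.10, with 294 higher and 263 lower, so the direction at kept sites depends on the scale and their place below the rest does not. Without overexpression replicate 1 the calls at kept sites were 57 higher and 1120 lower of 2870. The wider fit, of 72058 sites with a peak in 2 or more of the 4 libraries, called 5.02% higher and 47.9% lower. Of the 8622 at kept sites 61 rose and 5500 fell, a count that includes sites whose overexpression libraries had no peak. With values raised to the highest library minimum, 10.4% of sites were called, 0.973% higher and 9.47% lower, and of 8084 at kept sites 20 rose and 2644 fell. Without either control replicate the wider fit made 0 calls at 3518 and 3550 kept sites (over all sites, 1533 and 1501 had an unadjusted p under 0.05).

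Several hnRNPA1 sites changed strongly. At SNX15, a sorting nexin, hnRNPA1 had 13.4 and 28.9 normalised reads in overexpression, against 229 and 227 in control libraries (log2 change -3.46 ± 0.35 SE, limma adjusted p = 0.00289). U2AF2 at the same site had a change of 3.07, in which a library without a peak counted as 0. PTPN14, a tyrosine phosphatase, had 15.1 and 14.5 against 152 and 179 (-3.39 ± 0.26, limma adjusted p = 0.00173). POLN, a DNA polymerase, UBE2G2, a ubiquitin-conjugating enzyme, and CHRNB1, a nicotinic receptor subunit, had changes between -3.38 and -3.31. In the other direction, AAMDC had 30.2 and 41.8 in overexpression, against 7.50 and 5.79 in control libraries (2.27 ± 0.35, limma adjusted p = 0.00764). A site in NEAT1 had 95.6 and 99.6 against 24.2 and 27.0 (1.89 ± 0.26, limma adjusted p = 0.00530), with a U2AF2 change of -5.52. RYR2, a calcium release channel, and SLIT2 had hnRNPA1 changes of 1.81 and 1.62.

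In the wider hnRNPA1 fit the largest changes were at sites with no peak in one condition. HNRNPU, a nuclear matrix hnRNP, had no hnRNPA1 peak in either overexpression library and 377 and 454 normalised reads in the control libraries. CCDC144BP, a pseudogene whose reads may be shared with its copies, had none and 384 and 308, and the small nuclear 7SK RNA, which has many copies, none and 191 and 248. At C2orf42 the order was the reverse, with 70.5 and 127 in overexpression and no peak in control libraries, and at ZNF207, a mitotic zinc finger protein, 30.2 and 25.7 and no peak. NCAPG, a condensin subunit, and FANCA, a Fanconi anaemia protein, likewise had hnRNPA1 peaks in both overexpression libraries and in no control library. No fold is given for these, since a library without a peak has no value.

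SRSF1 did not show a shift of this kind. Kept sites held 57.3%, 48.4% and 51.0% of SRSF1 reads in overexpression libraries, against 46.3%, 39.9% and 48.5% in control libraries, which overlap. In the 1270 SRSF1 sites with a peak in all 6 libraries, 8.74% were called higher and 5.51% lower by limma, and at the 975 in kept U2AF2 sites 79 rose and 47 fell, with a median change of -0.00. Without overexpression replicate 3 the calls at kept sites were 31 higher and 13 lower, without overexpression replicate 2 they were 44 and 18, and without control replicate 2 they were 139 and 63 of 1480. In the wider fit, of 7359 SRSF1 sites with a peak in 3 or more of the 6 libraries, 17.1% were called, 10.8% higher and 6.28% lower, and of 4038 at kept sites 423 rose and 98 fell. The calls of the wider fit at kept sites dropped to 5 higher and 3 lower without overexpression replicate 1 and to 0 higher and 2 lower without replicate 2 or without replicate 3. With values raised to the highest library minimum, 5.09% were called, 3.52% higher and 1.57% lower, and 116 rose and 35 fell of 3370 at kept sites.

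Among the SRSF1 sites that rose most at kept sites were those of NCL, GAS5 and GNL3. NCL, which codes for nucleolin, had 218, 247 and 292 normalised SRSF1 reads in overexpression, against 8.35, 12.7 and 58.6 in control libraries (log2 change 3.67 ± 0.61 SE, limma adjusted p = 0.00621). GAS5 had 272, 347 and 370 against 45.9, 41.4 and 56.3 (2.76 ± 0.26, limma adjusted p = 0.00119). GNL3, a nucleolar GTPase, had a change of 2.97. U2AF2 changes at these 3 sites ran the other way, at -6.60 for NCL, -5.79 for GAS5 and -5.38 for GNL3. SRSF1 fell at YAF2, a polycomb-associated protein, with 15.6, 11.9 and 14.6 in overexpression, against 99.1, 102 and 65.5 in control libraries (-2.56 ± 0.30, limma adjusted p = 0.00245). SUMO3 and ARHGEF18 had changes of -2.19 each, and RPL7A, a ribosomal protein, -2.01. U2AF2 changes at these sites were 0.80 at YAF2, -7.32 at SUMO3, -2.27 at ARHGEF18 and -6.88 at RPL7A. The 3 that rose and the 4 that fell are among the 5 largest in each direction in the fit of sites with a peak in every library.

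Where one condition had no SRSF1 peak, MALAT1 stood out in both directions. Its site at chr11:65269640-65269677 had 91.8, 121 and 109 normalised SRSF1 reads in overexpression and no peak in control libraries. The site at chr11:65268697-65268722 had no peak in overexpression, against 69.9, 89.1 and 74.7 in control libraries. HNRNPH1 and ZNF711 had SRSF1 peaks in the 3 overexpression libraries and in no control library, at sites where U2AF2 changes were -6.38 and -5.24. CANX, an endoplasmic reticulum chaperone, and RPL13A had such peaks too, with a peak in 1 control library, of 6.26 and 16.1 normalised reads. NEAT1 and DENND10 had SRSF1 peaks in the 3 control libraries alone, as did RNU1-3, a U1 snRNA copy, and ATP6V1G2-DDX39B, a read-through name whose reads may belong to DDX39B.

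Set against the U2AF2 change, hnRNPA1 and SRSF1 changes at the same kept site both lay higher where U2AF2 was lower. At kept sites with hnRNPA1 reads in all 4 libraries, the median hnRNPA1 change was -0.53 where the U2AF2 change was under -4 (388 sites), -1.48 where it was between -1 and 1 (441 sites) and -1.35 where it was over 2 (70 sites). For SRSF1 it was 0.52 (206 sites), -0.15 (359 sites) and -0.36 (35 sites). Over sites, Pearson's r was -0.43 for hnRNPA1 (1374 sites) and -0.31 for SRSF1 (968 sites). These describe sites within the same libraries, which are not independent replicates and share the abundance of their RNA.

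**Figure D5:**
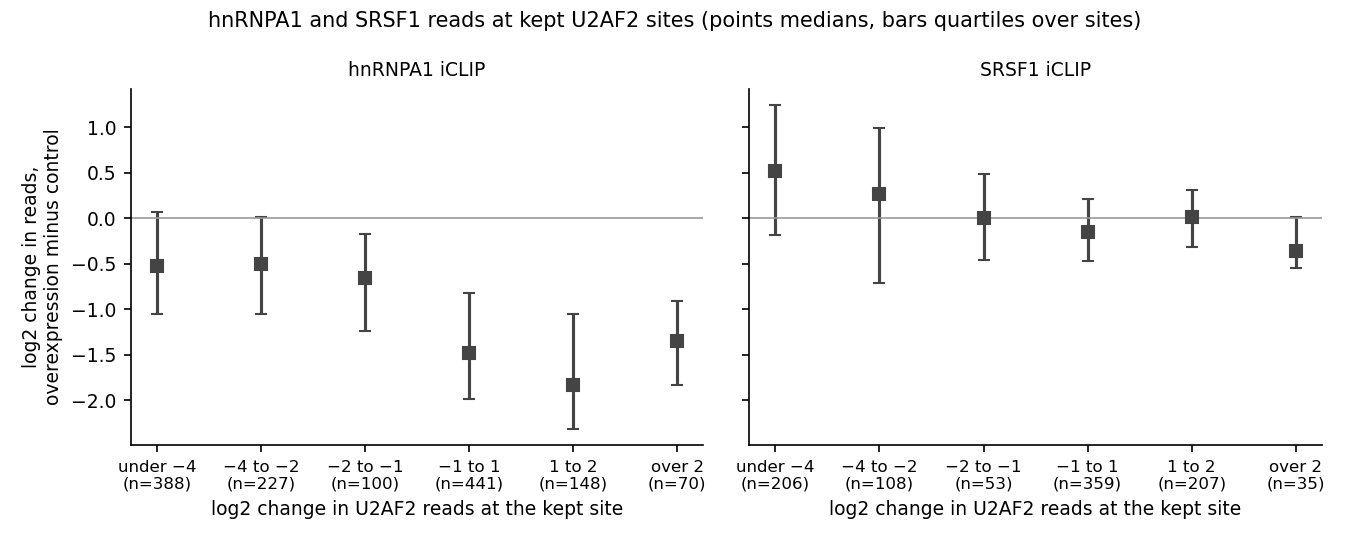
Median log2 change in hnRNPA1 (left) and SRSF1 (right) reads, overexpression minus control, at kept U2AF2 sites grouped by their U2AF2 change (points; bars are quartiles over sites; n is the number of sites). hnRNPA1 medians run from -0.53 at the lowest U2AF2 changes to -1.83 at changes of 1 to 2, and SRSF1 medians from 0.52 at the lowest to -0.36 at the highest.

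Some kept sites lay at cassette exons that the authors called changed in RNA-seq. The authors' deposited table lists 251 exon skipping events, each spanning a cassette exon and its neighbours, of which 155 had lower and 96 higher mean inclusion with overexpression. Of these events 61 (24.3%) held a kept U2AF2 site, 45 with lower and 16 with higher inclusion. The 91 sites concerned had a median U2AF2 change of -2.21, and 68 of them had an hnRNPA1 control peak. The table gives no strand, so a site on either strand was counted.

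The following events were chosen after their values were seen. In ZNF711 the leading U2AF2 site overlaps an event in which the authors' deposited table gives an exon inclusion fraction of 0.2 and 0.24 in the overexpression libraries, against 0.58 and 0.59 in the control libraries. In SRSF11, where 4 kept sites lie in the event with U2AF2 changes of -4.97 to -4.53, the authors' deposited table gives 0.41 and 0.18, against 0.73 and 0.76. For SON, with 5 kept sites from -6.51 to -3.23, the authors' deposited table gives 0.03 and 0.06 in overexpression, against 0.58 and 0.23 in control libraries. RBM39, a U2AF2-related splicing factor, has 0.15 and 0.15 against 0.72 and 0.44 in the authors' deposited table, and U2AF2 changes of -5.33 and -4.26 at its sites. TRIM65, a ubiquitin ligase, had U2AF2 changes of 1.02 to 2.90 at 3 sites and, in the authors' deposited table, 0.66 and 0.5 in overexpression, against 0.66 and 0.84 in control libraries. In the change of 2.90 a library without a peak counted as 0. Lower mean inclusion was thus listed beside U2AF2 changes of both signs, with the value 0.66 in both conditions at TRIM65. Higher inclusion, which none of the events above had, was also listed beside U2AF2 falls. BCLAF1 has 0.83 and 0.8 in overexpression, against 0.61 and 0.37, with U2AF2 changes of -4.48, -1.48 and -2.68. ZNF121 has 0.66 and 0.2, against 0.15 and 0.09, with a U2AF2 change of -4.32.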

How the data were processed

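The files hold CLIPper peaks of 16 iCLIP libraries, per the file headers and names, on hg19. TopHat and Bowtie2 are named in the submitters' processing notes; versions, filters and duplicate removal are not given in the sources used here. The last part of each peak's deposited name was taken as its reads, an unnormalised count. Deposited peaks start at 6 reads, but at 3 in U2AF2 overexpression replicate 3, so peaks under 6 were left out everywhere. The authors' exon table, per its header a MISO comparison, gives inclusion as a fraction, a difference score (control minus overexpression, turned round here) and a Bayes factor, a ratio. The table's name gives minimums of 0.33 for the difference and 5 for the Bayes factor; how they were applied is not given in the sources used here.

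Peaks were merged into sites per protein, with a peak that appears under more than 1 gene entered a single time. Reads were summed per site, divided by median-of-ratios size factors and fitted as log2(normalised reads + 1) with limma 3.58.1 (trend) in R 4.3.3, with condition as the only term. Tests were two-sided, Benjamini-Hochberg adjusted over all sites tested, with a threshold of 0.05. Sites needed a peak in 3 of 6 (hnRNPA1, 2 of 4) libraries or more; a filter on a peak in every library stands beside it. The fit was tested on simulated data. The hg19 site positions are 1-based. Gene IDs, without versions, were matched by ID to a name table; 8120 of 8723 kept sites had a symbol, and 1053 were listed under more than 1 gene. Strand is that of the peak. Scripts ran in Python 3.11.15 with pandas 2.3.3, numpy 2.4.6, matplotlib 3.10.9 and scipy 1.17.1.

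Named sites were the 10 with the highest mean level (at most 2 a gene), the 5 largest and 5 smallest changes with and without an hnRNPA1 control peak among sites with a peak in all 6 libraries, the 5 largest in each direction in the hnRNPA1 and SRSF1 fits, the highest of each gene list and those at cassette exon events. The kept sites, lists, markers and rules were chosen with earlier results of these data known. Alternatives were other scales, pseudocounts, filters, overlaps and read minimums, the highest peak per site, each library left out and the replicate number as a block. Peaks identical between replicates were at most 0.0693% of the smaller library. Left out by name were 75 sites on sex-linked transcripts. Of the named SRSF1 sites, 2 are not reported here.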

Additional observations from a re-analysis of the deposited data

How the results depend on the processing

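The number of sites called changed moved with the treatment of low values and with leaving out 1 library. For U2AF2 it was 43853, but 3155 with a peak in every library, 10235 with values raised to the highest library minimum, and 7565 to 42377 without 1 library, fewer sites being tested without an overexpression library. For hnRNPA1 it was 38130, but 1269, 5873 and 0 to 41809 under the same settings. For SRSF1 it was 1256, but 181, 308 and 4 to 1112, and 617 with no filter. In the fits of sites present in every library, omitting overexpression replicate 1, 2 and 3 and then control replicate 1, 2 and 3 gave 3219, 3115, 3223, 3943, 3852 and 3401 calls for U2AF2 and 123, 87, 55, 129, 299 and 182 for SRSF1. For hnRNPA1, omitting overexpression replicate 1 and 2 and then control replicate 1 and 2 gave 2661, 1444, 1277 and 1234. Scaling those fits by total reads gave 4123 calls for U2AF2 (2883 higher and 1240 lower), 4298 for hnRNPA1 (3980 and 318) and 163 for SRSF1 (86 and 77). With the replicate number as a replicate block the calls were 43259, 37158 and 1179, and with a peak in every library 3129, 1534 and 147. Same-numbered libraries correlated at 0.057, 0.078 and 0.052 for U2AF2, at -0.012 in both hnRNPA1 pairs and at 0.125, 0.097 and 0.039 for SRSF1. Every U2AF2 and SRSF1 library correlated best with its own number, a hint from the data and not the design, and the numbers were not taken as pairs.

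The kept sites numbered 5418 with peaks of at least 10 reads, 4613 with a peak in all libraries and 4859 at the highest library minimum. They rose to 11277 with an overlap of 10 nt or more, and were 5832 to 7960 without 1 library. Their share with an hnRNPA1 control peak was 78.4% with both control libraries asked for, 84.3% with hnRNPA1 peaks of at least 10 reads, 89.8% with U2AF2 peaks of at least 10 reads and 97.5% at the highest library minimum. The class difference of 2.44 became 2.73 with total reads, 1.84 with a pseudocount of 6, 2.90 with libraries without a peak left out, 2.09 with the highest peak per site and 3.32 with a peak in all 6 libraries. In 3 equal groups of sites by level, low to high, it was 1.83, 4.08 and 4.35, and without 1 library 2.29 to 3.01. At the highest library minimum it was 1.54, and 1.07 with values raised to it. It turned to -0.63 in sites of 400 nt or more. The change at the ENSG00000205236 site turned to -0.25 with the highest peak per site. The cause of these moves was not tested. Of the other values of named sites under the alternatives, 233 moved by less than the spread and 72 by more, in the same direction, for U2AF2, 136 kept and 14 lost the call for hnRNPA1, and 169 and 17 for SRSF1. The settings on values raised, the highest minimum and width, and the further settings within the fits on a peak in every library, were chosen after seeing the data. Peaks under 6 reads were not used, so absence of a peak is not absence of binding.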

Other observations

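Kept sites close to each other had U2AF2 changes of like sign. Of 1767 pairs of neighbouring kept sites within 500 nt, 78.4% had changes of the same sign, against 72.4% of 1434 pairs 500 nt to 10 kb apart and 53.0% of 5474 pairs further apart. Sites in genes named ZNF with a number, a group chosen after the data were seen, were 225 in number with a median U2AF2 change of 0.57; 83 were below 0, against 4067 of 8723 over all kept sites. With an hnRNPA1 control peak their median was 0.88, and without one, at 22 sites, -3.63.

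At 1 kept site of MALAT1 (hg19 chr11:65269631-65269692) 2 adjacent hnRNPA1 intervals changed places. The interval chr11:65269624-65269646 had 75 and 119 reads in overexpression and no peak in control libraries. The interval chr11:65269649-65269678 had no peak in overexpression, against 602 and 406 reads in control libraries. SRSF1 had a peak that overlapped both intervals in the 3 overexpression libraries alone, with 94, 174 and 142 reads, and the U2AF2 change was -2.11.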
